A study of Mus musculus with 6 samples.

Results

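Platelets are switched on by soluble agonists, and the receptors for these agonists are made in megakaryocytes, the bone marrow and fetal liver cells that release platelets. Levels are given here for the receptors for ADP and ATP (P2ry12, P2ry1, P2rx1), thrombin (F2r, F2rl2, F2rl3), thromboxane A2 (Tbxa2r), prostaglandin E2 (Ptger3), prostacyclin (Ptgir) and adrenaline (Adra2a). Members were taken by gene symbol, as every probe set that the platform annotation assigns to that gene alone. These were 13 probe sets for 9 of the 10 genes, out of 45037 probe sets that are not array controls and 18193 genes with a probe set of their own. Adra2a had no probe set named for it in the annotation used and was not analysed here. F2r, F2rl2, P2rx1 and Ptger3 had 2 probe sets each. The rule uses gene symbols and no measured value.

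Expression was measured on 6 arrays of mouse megakaryocytes grown from cells of the fetal liver in thrombopoietin, which drives megakaryocyte formation, and purified on an albumin gradient. The 3 arrays of one group came from cells labelled FOG1-/- ki/ki, called FOG1 ki/ki here, in which FOG1 is encoded by a knocked-in allele that the labels do not describe further. The control group held 2 arrays of FOG1+/- cells, replicates 1 and 2, and 1 array of FOG1+/+ cells, replicate 3. All mice were of a mixed C57BL/6xSv129 background, their age is not given in the labels, and all samples are called biological replicates. FOG1, the product of Zfpm1, is a cofactor of GATA1 and other GATA factors and is needed for megakaryocytes to form. The comparison asks how the receptors were expressed when FOG1 came from the knocked-in allele.

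As background, most of these receptors are seven-transmembrane proteins that signal through heterotrimeric G proteins. P2ry1 acts through Gq to release calcium and start the shape change of platelets, and P2ry12 acts through Gi to lower cyclic AMP and sustain aggregation. P2rx1 is an ATP-gated cation channel. Thrombin receptors are cut by thrombin and then activated by their own new amino terminus. Mouse platelets are known to respond to thrombin through F2rl3, with F2rl2 as the cofactor that presents thrombin to it, whereas human platelets use F2R. Ptgir raises cyclic AMP and restrains platelets.

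The labelled cell type was checked first. Itga2b, the alpha chain of the platelet fibrinogen receptor, had signals of 1907, 1947 and 3309 in FOG1 ki/ki and 1843, 2678 and 2867 in control, and Zfpm1 had means of 874 and 809.8 in the same groups. Since a knocked-in allele can be transcribed, the Zfpm1 level does not check the genotype label. Signals are linear MAS5 values scaled by the authors to one target on each array, and between 59.8% and 63.7% of probe sets lay under a signal of 32 on an array. A probe set under 32 on all 3 arrays of a group is called near background there. Differences are of log2(signal + 16), which understates changes of dim genes, and tests are limma fits over all 45037 probe sets with Benjamini-Hochberg adjustment. A scaled array cannot show a change in total RNA, and in cultures of mixed cells fewer cells of a type cannot be told apart from less RNA per cell.

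Both G protein-coupled ADP receptors of this set lay lower in FOG1 ki/ki, as did the thrombin cofactor F2rl2. None of these differences passed adjustment over all probe sets. P2ry12 was near background in FOG1 ki/ki, P2ry1 averaged 43.7% of its control level and F2rl2 averaged 75.1% or 71.1%, depending on the probe set. The ATP channel P2rx1, the thrombin receptors F2r and F2rl3, the thromboxane receptor Tbxa2r and the prostanoid receptors Ptger3 and Ptgir overlapped between the groups.

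P2ry12 gave signals of 5.1, 7.9 and 1.70 in FOG1 ki/ki replicates 1 to 3, against 24.6, 50.5 and 49.9 in control replicates 1 to 3. All 3 FOG1 ki/ki arrays were near background, and the control arrays stood above them without overlap, 1 of them also under 32. The mean signal was 4.90 ± 3.11 in FOG1 ki/ki and 41.7 ± 14.8 in control (SD, n = 3 each), a difference of -1.44 on the log2(signal + 16) scale (SE 0.31, 95% interval -2.17 to -0.71, limma adjusted p = 0.466). Because the FOG1 ki/ki signals were so low, the pseudocount set the size of the difference, which was -2.95 with a pseudocount of 1 and -0.61 with one of 64. P2ry12 passed the test in 1 alternative, when each array was centred on its median log2 value (difference -1.42, limma adjusted p = 0.0292). That setting called 163 of all 45037 probe sets, against 1 without the centring. The limma adjusted p of P2ry12 ranged from 0.0292 to 0.99997 over the alternatives.

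P2ry1 was clearly measured in both groups. Its signals were 253.4, 171.6 and 205 in FOG1 ki/ki, against 404.3, 403 and 635 in control. Every FOG1 ki/ki array lay below every control array. The means were 209.9 ± 41.1 in FOG1 ki/ki and 481 ± 134 in control (SD, n = 3 each), and the log2 difference was -1.12 (SE 0.25, 95% interval -1.72 to -0.52, limma adjusted p = 0.504). Within equal replicate numbers the log2 differences of P2ry1 were -0.64, -1.16 and -1.56 for numbers 1 to 3, and those of P2ry12 were -0.94, -1.48 and -1.90. For both receptors the difference was greatest between the replicate 3 arrays, where the control is the only FOG1+/+ culture. The replicate 3 arrays also had the lowest median signals, 5.93 in FOG1 ki/ki and 7.75 in control, against 10.3 to 12.3 on the other arrays. Their log2 ratios of 3′ to 5′ actin probe sets, a measure of RNA quality, were 1.47 in FOG1 ki/ki and 0.946 in control. In FOG1 ki/ki and control these ratios were 0.447 and 0.527 for replicate 1, and 1.04 and 1.08 for replicate 2. Summed markers of neutrophils and of fibroblasts, given below, were also lowest on the replicate 3 array of each group. The part of the median signals, ratios and such cells in the differences was not tested. Without the FOG1+/+ control array the differences were -0.91 for P2ry1 and -1.32 for P2ry12, both still below 0. Within the control group, the FOG1+/+ genotype cannot be told apart from replicate 3.

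P2rx1, the channel opened by ATP, overlapped between the groups. Its brighter probe set, 1429794_a_at, read 479.7, 466.7 and 645 in FOG1 ki/ki and 473, 536 and 911 in control. Its other probe set, 1460719_a_at, read 490, 273.4 and 368 in FOG1 ki/ki and 532.3, 326.1 and 567 in control. The FOG1+/+ control was the highest array on both. The log2 differences were -0.22 (95% interval -0.87 to 0.42, limma adjusted p = 0.9998) and -0.32 (95% interval -1.01 to 0.37, limma adjusted p = 0.9998). Without the FOG1+/+ control the brighter probe set differed by 0.058. Within equal replicate numbers the brighter probe set differed by 0.020, -0.19 and -0.49, and the other was lower at all 3 numbers, by 0.12, 0.24 and 0.60 (limma adjusted p = 0.533 with the replicate block).

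**Figure D1:**
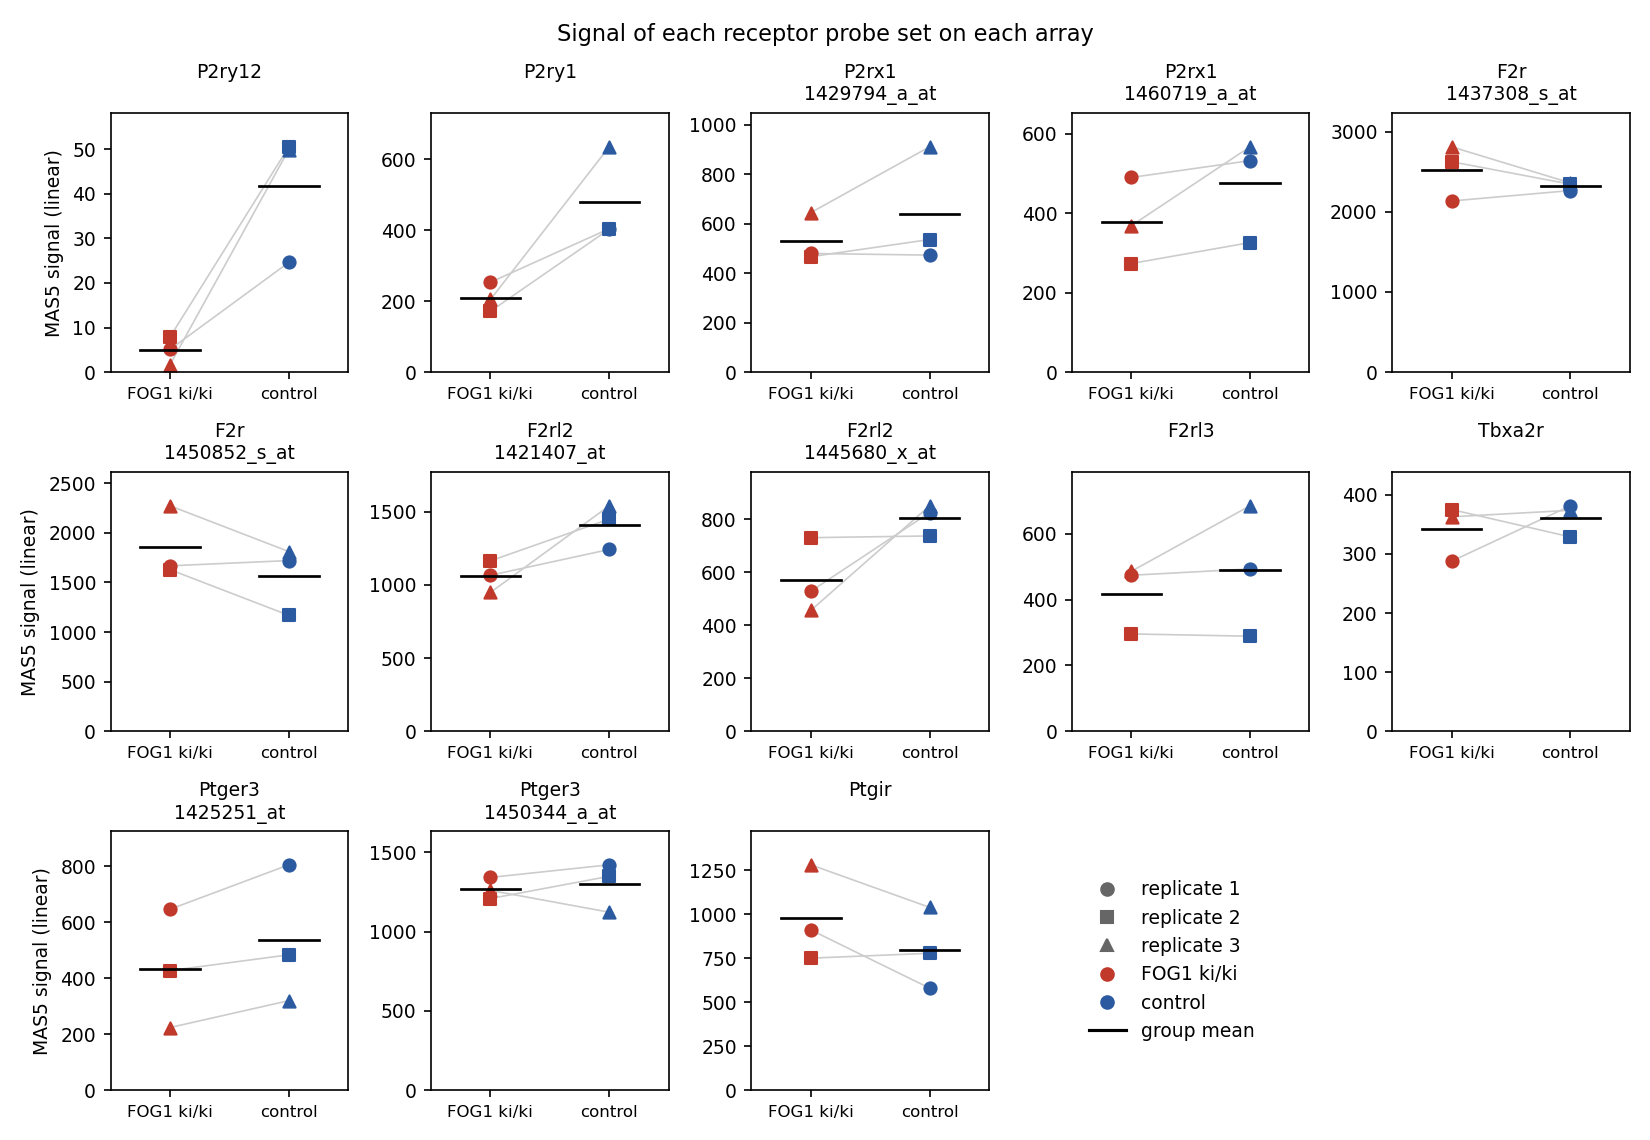
Linear MAS5 signal (vertical axes, each starting at 0) of the 13 receptor probe sets on the 3 FOG1 ki/ki arrays (red, left) and the 3 control arrays (blue, right). Marker shapes give the replicate number, grey lines join equal numbers and black bars are group means; P2ry12, P2ry1 and both F2rl2 probe sets have all red points below all blue points.

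Among the thrombin receptors, the groups did not overlap for the cofactor F2rl2, which did not pass the test, and overlapped for F2r and F2rl3. F2rl2 probe set 1421407_at read 1066, 1164 and 948 in FOG1 ki/ki, against 1242, 1450 and 1541 in control. The second probe set, 1445680_x_at, whose suffix marks probes that may match other transcripts, read 528.1, 730.5 and 456 in FOG1 ki/ki and 825.2, 737 and 851 in control. On both the groups did not overlap, although on the second probe set the replicate 2 arrays were nearly equal. The log2 differences were -0.41 (SE 0.15, 95% interval -0.76 to -0.052, limma adjusted p = 0.891) and -0.51 (SE 0.21, 95% interval -0.99 to -0.026, limma adjusted p = 0.957). The probe sets measure one gene on the same arrays, so the second is not an independent replicate of the first.

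F2rl3, which signals for thrombin in mouse platelets, had 474, 295.7 and 486 in FOG1 ki/ki and 493.3, 288.7 and 685 in control. Here the replicate 2 arrays were the lowest of both groups and the FOG1+/+ control was the highest array. The log2 difference was -0.17 (SE 0.34, 95% interval -0.97 to 0.63, limma adjusted p = 0.9998), and it was 0.11 without the FOG1+/+ control and 0.055 without FOG1 ki/ki replicate 2. The interval reaches to values below the difference of F2rl2, so the data do not show whether F2rl3 and F2rl2 behaved differently.

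F2r, the thrombin receptor that human platelets use and that fibroblasts and endothelial cells also carry, had bright signals in all samples. Probe set 1437308_s_at gave 2135, 2624.5 and 2810 in FOG1 ki/ki and 2265, 2344 and 2360.0 in control, and 1450852_s_at gave 1668, 1629 and 2273 in FOG1 ki/ki and 1721, 1168 and 1812 in control. The groups overlapped on both probe sets. The log2 differences were 0.11 (95% interval -0.21 to 0.43, limma adjusted p = 0.9998) and 0.25 (95% interval -0.25 to 0.76, limma adjusted p = 0.9998). For the first of these probe sets the interval excludes a log2 difference as large as that of P2ry1 in either direction. The summed signal of 11 fibroblast markers ranged from 223 to 3504 in FOG1 ki/ki and from 294 to 8340.3 in control. Of these markers 10 lay below control (median -0.74), and the part of such cells in the F2r signal was not tested.

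Receptors for lipid mediators overlapped between groups. Tbxa2r, the thromboxane A2 receptor, had 287.8, 375.3 and 363 in FOG1 ki/ki and 381.6, 328.9 and 374 in control (log2 difference -0.083, 95% interval -0.53 to 0.36, limma adjusted p = 0.9998). It turned to 0.031 without FOG1 ki/ki replicate 1, the lowest array. Ptgir, the prostacyclin receptor, was higher in FOG1 ki/ki by less than its spread, with 910.6, 750.4 and 1281 in FOG1 ki/ki and 579.8, 777.9 and 1039 in control (log2 difference 0.29, 95% interval -0.35 to 0.93, limma adjusted p = 0.9998). Within equal replicate numbers Ptgir differed by 0.64, -0.051 and 0.30, with replicate 2 nearly equal.

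The probe sets of Ptger3, the prostaglandin E2 receptor that lowers cyclic AMP, did not show the same picture. On 1425251_at the signals were 646.5, 427.4 and 224 in FOG1 ki/ki and 805.4, 483.7 and 320 in control, so the replicate number separated the arrays more than the genotype. Each FOG1 ki/ki array lay below the control of its number, by 0.31, 0.17 and 0.49 on the log2 scale, while the groups overlapped (difference -0.32, 95% interval -1.36 to 0.72, limma adjusted p = 0.9998). With the replicate number as a block the unadjusted limma p of this probe set was 0.0387 and its adjusted p 0.481. On 1450344_a_at the signals were 1342, 1208.5 and 1260 in FOG1 ki/ki and 1421, 1349 and 1123 in control, with a difference of -0.025 (95% interval -0.36 to 0.31, limma adjusted p = 0.9998). The files do not say which transcript forms each probe set detects.

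**Figure D2:**
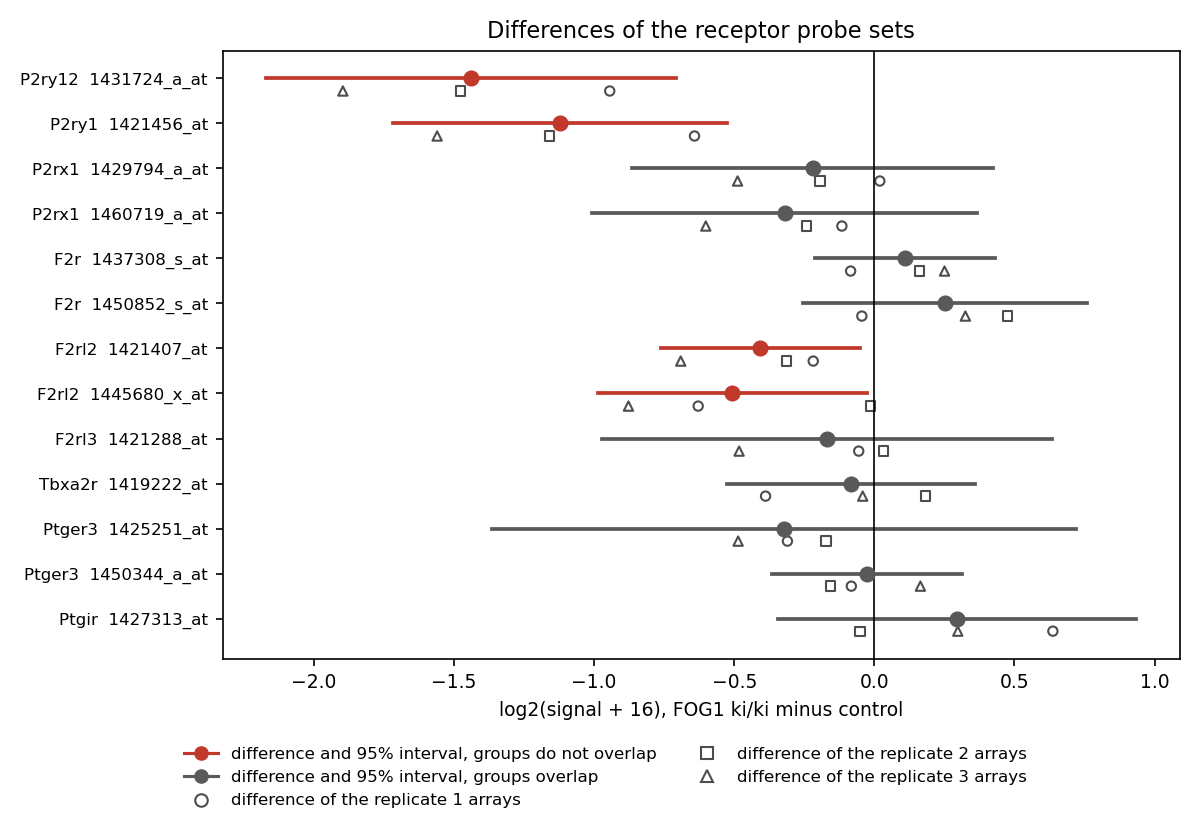
Difference in log2(signal + 16), FOG1 ki/ki minus control, for each receptor probe set (filled points, red where the groups do not overlap) with the 95% interval of the limma fit (bars) and the differences between arrays of equal replicate number (open markers). P2ry12 at -1.44 and P2ry1 at -1.12 lie farthest from 0, the F2rl2 probe sets at -0.41 and -0.51 come next, and the intervals of all other probe sets include 0.

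Over the whole set, 10 of 13 probe sets lay below control, against 46.0% of the brighter 50% of probe sets, which held all 13, and the median log2 difference was -0.22. P2ry12 was in this brighter part through its control arrays, so its share in the counts set beside that part is not support for a difference. For the brightest probe set of each gene, 7 of 9 lay below control with a median of -0.17, against 49.1% and a median of 0.00294 over all 18193 genes so measured. Of the 11284 genes so measured in the brighter 50%, where all 9 lay, 5088 were below control, with a median of 0.0317. Limma called 0 of the 13 probe sets, and 1 of all 45037 (0.00222%), a probe set of the Wnt inhibitor gene Apcdd1. At an unadjusted limma p under 0.05 there were 4 of the 13, against 5.06% of all probe sets, and with the replicate block 5 of the 13, against 9.87%. The groups did not overlap, with FOG1 ki/ki lower, for 4 of the 13, against 4.91% of the brighter probe sets, and for 3 of the 9 genes, against 4.94% of all genes. None was higher without overlap, where 5.32% of the brighter probe sets were. Lower in FOG1 ki/ki at all 3 replicate numbers were 6 of the 13, against 18.2% of the brighter probe sets. Of the brighter probe sets, 1.99% had a difference lower than that of P2ry1 and 13.01% one lower than that of the brighter F2rl2 probe set.

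The arrays of equal replicate number resembled each other, and a fit with the number as a block called 0 of the 13 (lowest adjusted p = 0.233) and 0 of all probe sets (0.0%). When only the brightest probe set of each gene among the brighter 50% was fitted, 17 of 11284 genes passed (0.151%), and with the block 97 (0.86%). None of the receptors was among them. Under that last fit, chosen after seeing the data, the limma adjusted p was 0.0645 for P2ry12, 0.0705 for P2ry1 and 0.167 for F2rl2, and at least 0.346 for the other 6 genes. P2ry12 entered the brighter 50%, set by the mean over all 6 arrays, through its control arrays. Its FOG1 ki/ki signals lay below the median signals of their arrays, so its adjusted p in that fit is not support for a difference.

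**Figure D3:**
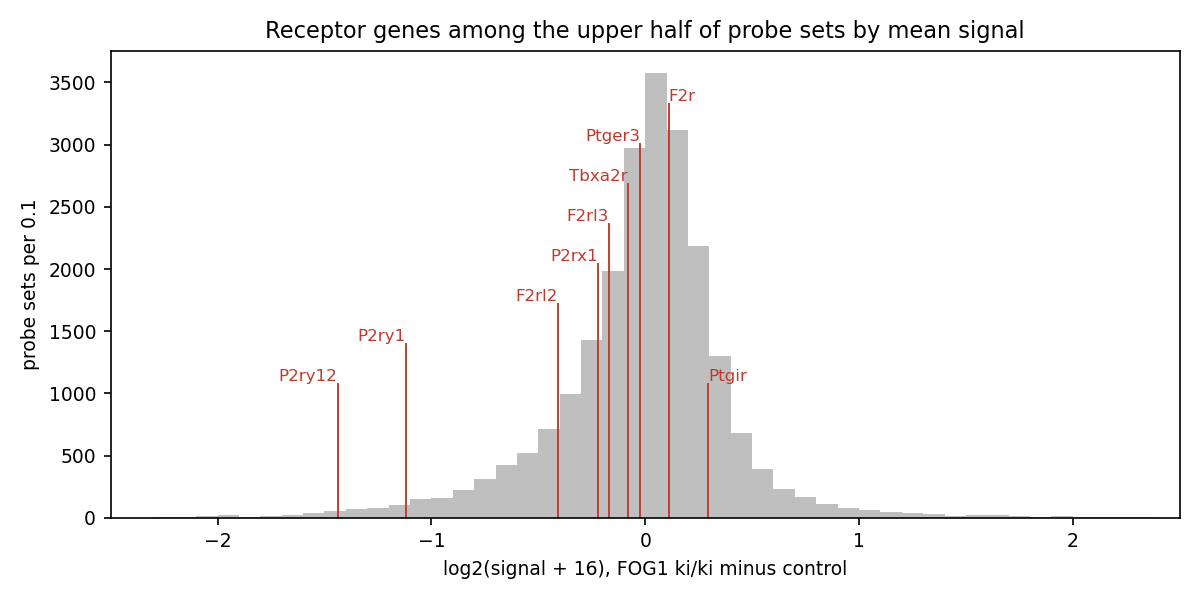
Number of probe sets per 0.1 step of the difference in log2(signal + 16), FOG1 ki/ki minus control, for the brighter 50% of probe sets (grey bars), with the brightest probe set of each receptor gene as a red line at its own difference (line heights only separate the names). P2ry12 and P2ry1 lie in the lower tail, and the other 7 receptors lie between -0.41 and 0.29. P2ry12 is in the brighter 50% through its control arrays.

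P2ry12 lies near related receptor genes, of which P2ry14 was higher in FOG1 ki/ki and P2ry13 overlapped between the groups. The annotation (RefSeq, GRCm38.p6) places P2ry14, P2ry13 and P2ry12 close to each other on chromosome 3. P2ry14, the receptor for UDP-glucose, had 565.9, 607 and 682 in FOG1 ki/ki and 240.3, 232.9 and 115 in control, so every FOG1 ki/ki array lay above every control (log2 difference 1.64, SE 0.29, limma adjusted p = 0.339). It passed when arrays were centred on their medians (limma adjusted p = 0.0384), where 163 of all 45037 probe sets passed. P2ry13, another ADP receptor, had 9.2, 19.1 and 3.54 in FOG1 ki/ki and 37.2, 33.7 and 9.26 in control, which overlapped, near background in FOG1 ki/ki and lower at each of the 3 replicate numbers (log2 difference -0.65, limma adjusted p = 0.9998).

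The thrombin receptor genes F2r and F2rl2 lie on chromosome 13 with Iqgap2, a cytoskeletal scaffold gene, between them. Iqgap2 read 2257, 1907 and 2469 in FOG1 ki/ki and 1900.2, 1385 and 1160 in control, above control on every array (log2 difference 0.59, limma adjusted p = 0.829). On the other side of F2rl2 lies Sv2c, a synaptic vesicle protein gene near background in control, with a log2 difference of 0.89 without overlap (limma adjusted p = 0.767). The genes on either side of Iqgap2 had differences of 0.11, F2r, and -0.41, F2rl2. Next to P2ry1 lies Mbnl1, an RNA-binding protein gene, which was lower in FOG1 ki/ki without overlap (log2 difference -0.54, limma adjusted p = 0.808). Around all 10 receptor genes, taking 3 protein-coding genes on each side, and leaving out the receptors themselves, 47 of 55 neighbours were measured and 26 of them lay below control, with a median difference of -0.00657. Limma called 0 of them, against 0.00222% of all probe sets, and 5 of the 47 were below 0.05 in unadjusted p, where 6.06% of all genes were. Lower in FOG1 ki/ki without overlap were 4 of the 47, against 4.94% of all genes. Higher without overlap were 3 of the 47, against 5.32% of the brighter 50% of probe sets. Beside Mbnl1, the lower ones were Tmem38a (-0.71) and Sin3b (-0.35) near F2rl3, and Gng8 (-0.45) next to Ptgir. Gng8 was near background in both groups, and Tmem38a in FOG1 ki/ki.

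**Figure D4:**
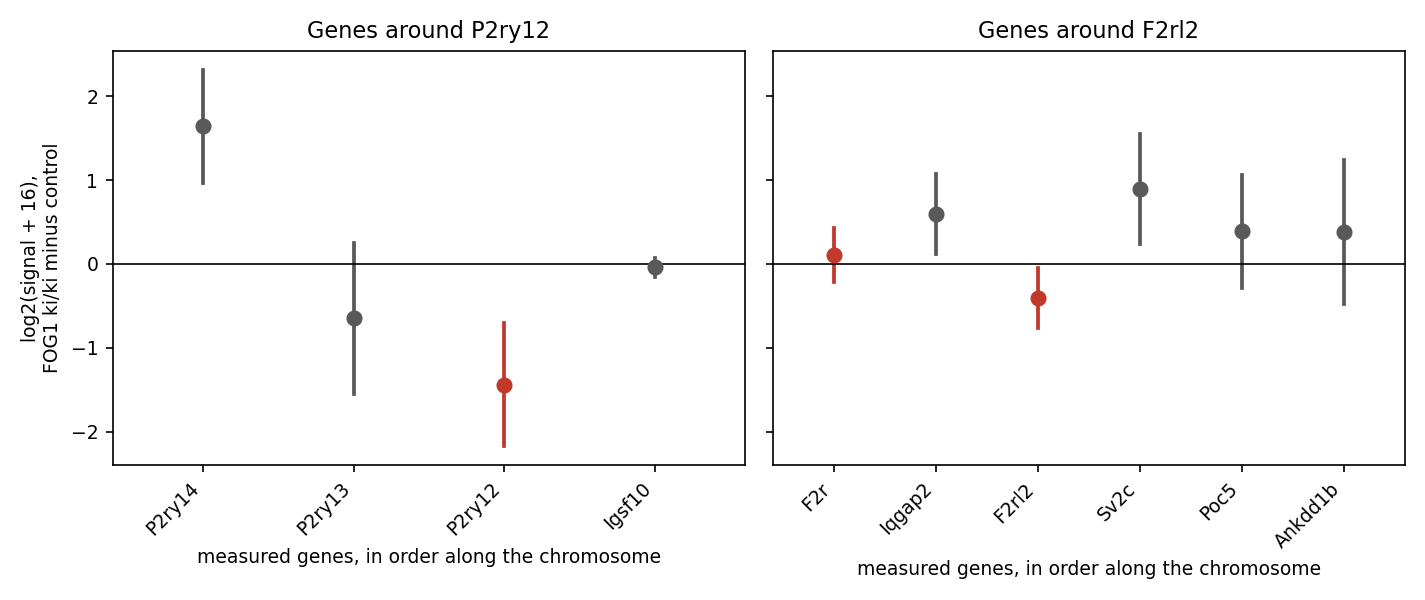
Difference in log2(signal + 16), FOG1 ki/ki minus control, with 95% intervals from limma, for the measured genes, in their order along the chromosome, around P2ry12 (left) and F2rl2 (right), receptor genes of the set in red. P2ry14 at 1.64 and P2ry12 at -1.44 stand on opposite sides of 0, and F2rl2 at -0.41 lies between Iqgap2 at 0.59 and Sv2c at 0.89.

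Promoter sequence was examined because FOG1 acts through GATA factors, which bind GATA-type sites. The letters AGATAA or its variant AGATAG, and also TGATAA or its variant TGATAG, were searched on both strands in the 250 bases before each annotated start (RefSeq, GRCm38.p6). They were present in 3 of the 10 receptor genes, F2rl2, F2rl3 and P2rx1. By window this was 3 of 11, against 26.5% of all 32851 such windows. The windows of the ADP receptors with the greatest differences, P2ry12 (chr3:59262986-59263235, minus strand) and P2ry1 (chr3:61002535-61002784, plus strand), held none of these letters. The windows of F2rl2 (chr13:95696670-95696919, plus strand), F2rl3 (chr8:72761409-72761658, plus strand) and P2rx1 (chr11:72998895-72999144, plus strand) held 1, 2 and 2. They are printed from 5′ to 3′ to set the ADP receptors beside the windows with a match, with the matches, read on either strand, in capitals.
P2ry12: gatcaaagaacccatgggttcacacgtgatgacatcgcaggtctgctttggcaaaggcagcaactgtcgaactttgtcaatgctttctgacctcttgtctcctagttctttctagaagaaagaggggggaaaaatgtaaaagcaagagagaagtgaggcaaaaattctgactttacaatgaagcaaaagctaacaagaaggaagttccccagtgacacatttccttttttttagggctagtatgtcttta
P2ry1: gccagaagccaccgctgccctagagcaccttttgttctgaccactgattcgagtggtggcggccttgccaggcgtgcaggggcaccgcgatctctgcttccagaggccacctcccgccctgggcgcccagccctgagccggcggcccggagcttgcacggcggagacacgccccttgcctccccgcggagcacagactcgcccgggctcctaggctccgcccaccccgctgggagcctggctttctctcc
F2rl2: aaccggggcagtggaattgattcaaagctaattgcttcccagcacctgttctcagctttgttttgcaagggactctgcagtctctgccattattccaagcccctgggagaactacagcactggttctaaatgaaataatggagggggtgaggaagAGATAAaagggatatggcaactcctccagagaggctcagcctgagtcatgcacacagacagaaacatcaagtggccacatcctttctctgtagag
F2rl3: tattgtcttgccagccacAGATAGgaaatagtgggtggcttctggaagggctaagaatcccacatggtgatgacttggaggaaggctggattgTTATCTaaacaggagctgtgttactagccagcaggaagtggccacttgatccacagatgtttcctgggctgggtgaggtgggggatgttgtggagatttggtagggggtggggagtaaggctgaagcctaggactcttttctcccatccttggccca
P2rx1: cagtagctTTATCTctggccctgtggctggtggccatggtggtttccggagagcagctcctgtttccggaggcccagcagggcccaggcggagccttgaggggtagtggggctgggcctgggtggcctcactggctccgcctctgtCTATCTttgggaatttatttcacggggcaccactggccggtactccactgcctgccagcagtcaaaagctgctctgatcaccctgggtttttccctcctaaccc
The ETS-type letters AGGAAG, searched on both strands in the same windows because ETS factors act in megakaryocytes, were present in 5 of the 10 genes, P2ry12, F2rl2, F2rl3, Tbxa2r and Ptgir. By window this was 5 of 11, against 29.5% of all windows. Among the windows of F2rl2, F2rl3 and P2rx1 with GATA letters, only F2rl2 belonged to a gene whose groups did not overlap. A match of letters is not a bound site, and a window without one says nothing of sites elsewhere.

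The signalling partners of these receptors were described by lists of genes, 93 of 103 measured. Limma called 0 of them, against 0.00222% of all probe sets, and 7 had an unadjusted p under 0.05, 4 lower and 3 higher, against 6.06% of all genes. Among other receptors for soluble mediators, 11 of 23 lay below control (median 0.00695). Beside P2ry14, Hrh2, a histamine receptor, averaged 38.8 ± 13.1 in FOG1 ki/ki and 5.84 ± 4.37 in control (limma adjusted p = 0.558), a difference of 1.32. The vasopressin receptor gene Avpr1a, near background in FOG1 ki/ki, had a log2 difference of -1.10 and the UDP receptor gene P2ry6 one of -1.25, both with overlapping groups.

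Of G protein subunits, 9 of 16 lay below control (median -0.00183). Gng11, a gamma subunit abundant in platelets, had 1147, 1409 and 1376 in FOG1 ki/ki and 1809, 2336 and 2241 in control. The groups did not overlap, and the differences within equal numbers were close to each other at -0.65, -0.72 and -0.70 (limma adjusted p = 0.503). Among these signalling genes, Gng11 and Hrh2 passed in the fit of the brighter genes with the replicate block (adjusted p = 0.0314 and 0.0476). The beta subunit gene Gnb4 differed by 0.74, Gng10 by 0.25 and Gnaz, a Gi-family subunit gene, by -0.18, all with overlapping groups.

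Of effectors, 17 of 24 lay below control (median -0.17). Plcb1, a phospholipase that Gq activates, averaged 45.2 ± 5.88 in FOG1 ki/ki and 109 ± 15.2 in control without overlap (log2 difference -1.03, limma adjusted p = 0.624). The adenylyl cyclase genes Adcy7 and Adcy3 differed by 0.33 and -0.93, the second with overlap, and the calcium channel gene Orai1 by 0.36 without overlap (limma adjusted p = 0.9998 for each). Of genes that desensitize receptors or act through cyclic nucleotides, 20 of 30 lay below control (median -0.18). Pde3a, which breaks down cyclic AMP, averaged 4.74 ± 1.35 in FOG1 ki/ki and 35.8 ± 18.7 in control and was near background in FOG1 ki/ki (limma adjusted p = 0.660), a difference of -1.25 without overlap. Prkg1, the cyclic GMP-dependent kinase, differed by 0.47 without overlap (adjusted p = 0.910), Pde2a by -0.92 and the dim Rgs16 by -0.52, both with overlap.

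Markers of other cell types differed between the arrays as well. The summed signal of 13 macrophage markers was 4168, 11585 and 7716 in FOG1 ki/ki and 11138, 15280.5 and 8399 in control, with all 13 members measured below control and a median difference of -0.74. P2ry12 is also expressed by microglia and some macrophages. The part of macrophages in the receptor values was not tested. The summed signal of 14 mast cell and basophil markers was between 8436 and 8629 in FOG1 ki/ki and between 765 and 4343 in control without overlap, 12 of 14 members being above control, and its part in the receptor values was not tested. Summed megakaryocyte markers overlapped, from 18888 to 25695 in FOG1 ki/ki and from 20290 to 27548 in control, with 11 of 12 members below control (median -0.19, against -0.17 over the 9 receptor genes). Singly, 2 of the 12 were lower in FOG1 ki/ki without overlap, Gp6 (log2 difference -1.35) and Gp9 (-0.28), against 4.94% of all genes. Among the defining genes, Csf1r of macrophages had means of 1177 in FOG1 ki/ki and 1689 in control, Ms4a2 of mast cells 486 and 59.4, Col1a1 of fibroblasts 525 and 895, and Mpo of myeloid precursors 1212 and 1355 in the same groups. The summed signal of 9 neutrophil markers, Mpo among them, was 9325, 16345 and 3918 in FOG1 ki/ki replicates 1 to 3. In control replicates 1 to 3 it was 13114, 15900 and 2750, and 6 of the 9 members lay below control (median -0.058). This sum was lowest at replicate 3 in both groups, as were the summed fibroblast markers, 223 in FOG1 ki/ki and 294 in control. The part of these cells in the receptor values was not tested. Of endothelial markers 6 of 11 lay below control (median -0.066), with summed signals from 1739 to 1931 in FOG1 ki/ki and from 1401.5 to 1764 in control. Among these, Cdh5 was near background in both groups, Tek averaged 1094 in FOG1 ki/ki and 319 in control, and Esam averaged 102 and 422 in the same groups. Of erythroid markers 3 of the 6 measured lay below control (median -0.052), Klf1 averaging 114 in FOG1 ki/ki and 22.3 in control, and Epor 244 and 480.0 in the same groups.

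The genes most like each receptor over the 6 arrays were found by Pearson correlation of log2 values among 11284 genes, as a description that rests on 6 points and shares their array-wide differences. For P2ry12 they were Arhgap22, Wipf3 and Sema3d (r from 0.989 to 0.998). For P2ry1 they were Pdcd10, Esam and BC064078 (r from 0.979 to 0.988). For F2rl2 they were Ppm1k, Rmdn2 and Slc45a4 (r from 0.993 to 0.997). P2rx1 was closest to Atp6v0a2, Wdr91 and Spata2 (r from 0.997 to 0.999), F2r to Rgs12, H2az2 and Fndc10 (r from 0.990 to 0.997), and F2rl3 to Mpc1, Czib and Polr3g (r from 0.983 to 0.995). Tbxa2r was closest to Pdrg1, S100a1 and Suds3 (r from 0.940 to 0.958), Ptger3 to Mocs2, Rab3ip and Adamts3 (r from 0.961 to 0.982), and Ptgir to Leng1, Zfp235 and Dnajc16 (r from 0.989 to 0.997). No gene appeared under more than 1 receptor.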

How the data were processed

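The authors deposited 1 array intensity per probe set on a linear scale, made with MAS5 according to tool names in the submitters' processing notes (version, scaling settings and detection calls not given in the sources used here). Arrays had been scaled to the same target, each to a 2% trimmed mean intensity of 150. The replicate 3 arrays were deposited with more decimals than the others. Of their values, 4.00% in FOG1 ki/ki and 3.88% in control were whole to 1 decimal, against 100% on every other array. The part of this in the differences was not tested. The number of arrays limits the precision. Per the labels' protocols, RNA was amplified with NuGEN Ovation kits. Of 45101 probe sets, 64 array controls were left out. Symbols came from the platform annotation, and 34754 of 34958 probe sets with 1 symbol matched RefSeq by Entrez identifier. Member genes and lists were chosen with earlier results of these data known.

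FOG1 ki/ki (3 arrays) was compared with control (3 arrays) on log2(signal + 16) by limma 3.58.1 in R 4.3.3 (lmFit, eBayes with trend), adjusted by Benjamini-Hochberg over all probe sets, with a threshold of 0.05. With groups of 3, the p-values rest on the spread between these cultures, which limma moderates over all probe sets. The spread of the control group is that of 2 FOG1+/- cultures and 1 FOG1+/+ culture. List genes were taken from their brightest probe set, and the 4 with the smallest p per list are named, with 3 genes most like each receptor. Deviations of same-numbered arrays correlated at 0.400, 0.611 and 0.571, which was read as pairing. The fit was tested on simulated data. Python 3.11.15 with pandas 2.3.3, numpy 2.4.6 and matplotlib 3.10.9 did the rest.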

Additional observations from a re-analysis of the deposited data

How the results depend on the processing

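The count of called probe sets was 1 with the settings of the report and moved with several of them. It was 0 with a pseudocount of 64, 0 with the replicate block, 4 without the variance trend, 15 in the brighter 50% of probe sets, 17 with the brightest probe set per gene there and 97 when the replicate block was added to that. It was 163 with arrays centred on their medians, 86 higher and 77 lower, and ranged from 0 to 0 when arrays were left out. Quantile normalization and a pseudocount of 1 left it at 1. Member probe sets called were 0 except with median centring, where 1 passed, P2ry12. Of the signalling genes 0 passed, except 2 with median centring (P2ry14 and Hrh2) and 2 in the brighter genes with the replicate block (Hrh2 and Gng11). The cause was not tested. In that last fit, marker genes Ms4a2, Gp6, Esam and Tek passed too (limma adjusted p = 0.00858, 0.0332, 0.0332 and 0.0419). Gp6 and Esam were lower in FOG1 ki/ki, and Ms4a2 and Tek higher. The block changed no call on a member.

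Over 18 alternatives, 213 of 226 member values kept their sign and side of the threshold, 1 came to pass and 12 turned sign, each when arrays were left out. Without the FOG1+/+ control, P2rx1 (1429794_a_at) was at 0.058 (lowest -0.40, without control replicate 1) and F2rl3 at 0.11 (lowest -0.49, without control replicate 2). F2rl3 was at 0.055 when replicate 2 of FOG1 ki/ki was left out. Without FOG1 ki/ki replicate 1, Tbxa2r was at 0.031 (-0.15 without replicate 2), and without both arrays of replicate 1 at 0.070. Ptger3 (1425251_at) was at 0.069 without FOG1 ki/ki replicate 3 (lowest -0.66, without replicate 1 of that group) and at 0.012 without control replicate 1. Ptger3 (1450344_a_at) was at 0.044 and 0.0064 without control replicates 1 and 2 (lowest -0.12, without control replicate 3), 0.0100 when replicate 2 of FOG1 ki/ki was left out, and 0.0039 and 0.041 without both arrays of replicates 1 and 2. With arrays left out, the log2 difference of P2ry12 stayed between -1.69 and -1.21, that of P2ry1 between -1.36 and -0.90 and that of F2rl2 (1421407_at) between -0.50 and -0.27. Signal near background limits P2ry12.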
